A study of Mus musculus with 19 samples.

Results

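The Pim family consists of 3 serine/threonine kinase genes, Pim1, Pim2 and Pim3, which were taken by symbol from the array annotation. Each was read by 1 probe set, and they are 3 of the 19752 genes measured. Mouse natural killer (NK) cells, lymphocytes that kill infected and transformed cells, were isolated from spleens of 6-week-old male C57BL/6 animals by depleting other cells. The study asked how blocking the Janus kinases JAK1 or JAK3 alters the response to interleukin-2 (IL-2), and profiled 19 samples in 9 groups on Affymetrix Mouse Gene 1.0 ST arrays after culture for 8 h. Untreated cells, without IL-2, gave 3 samples. Cells given IL-2 at 250 U/ml and no inhibitor gave 4 samples. All other groups received IL-2 together with an inhibitor. The JAK3 inhibitor, labelled 6226, was used at 0.25, 1 and 4 µM with 2 samples each. The JAK1 inhibitor, labelled 3404, was used at 0.0625 µM (1 sample), 0.25 µM (2 samples), 1 µM (2 samples) and 4 µM (1 sample). The labels do not tie samples to individual mice or cultures, so the p-values measure no more than the scatter among these arrays, possibly technical.

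Pim kinases phosphorylate proteins that control cell survival, protein synthesis and the cell cycle. They lack the regulatory domain that most kinases need for switching on and are active once made, so their amount is set largely by transcription, messenger RNA stability and protein turnover. The IL-2 receptor signals through JAK1 and JAK3, which activate the transcription factor STAT5, and Pim genes are known targets of this pathway in lymphocytes.

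The sequence just before each annotated transcription start is shown so that the regulatory DNA of the 3 genes can be compared. The sequences are from RefSeq, build GRCm38.p6, on the plus strand, and cover the 250 bases before the start. Pim1 lies at chr17:29490535-29490784, Pim2 at chrX:7878056-7878305 and Pim3 at chr15:88861944-88862193. Capitals mark matches to CCAAT, the core of the CCAAT box, or to ATGCAAAT, the octamer motif, on either strand (ATTGG and ATTTGCAT are the reverse complements).
Pim1: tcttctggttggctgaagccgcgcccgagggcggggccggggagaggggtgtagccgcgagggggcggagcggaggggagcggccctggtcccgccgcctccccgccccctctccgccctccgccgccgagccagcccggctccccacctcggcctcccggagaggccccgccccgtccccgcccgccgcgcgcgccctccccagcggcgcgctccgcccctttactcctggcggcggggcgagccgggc
Pim2: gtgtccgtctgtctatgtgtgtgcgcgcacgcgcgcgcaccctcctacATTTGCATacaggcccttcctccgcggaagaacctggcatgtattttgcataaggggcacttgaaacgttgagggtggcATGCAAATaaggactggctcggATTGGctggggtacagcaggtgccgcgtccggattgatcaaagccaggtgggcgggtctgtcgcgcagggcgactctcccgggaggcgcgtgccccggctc
Pim3: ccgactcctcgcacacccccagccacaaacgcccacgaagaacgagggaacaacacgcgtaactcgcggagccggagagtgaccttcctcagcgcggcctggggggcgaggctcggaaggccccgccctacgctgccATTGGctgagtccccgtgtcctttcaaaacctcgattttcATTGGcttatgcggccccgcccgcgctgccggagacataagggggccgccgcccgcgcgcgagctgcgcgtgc

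The motif search and base counts covered 300 bases, from 250 before to 50 after the start. All 3 windows were rich in G and C, at 81.3% for Pim1, 62.7% for Pim2 and 69% for Pim3, against a median of 52.7% over 32851 promoters. They held 42, 31 and 40 CpG dinucleotides, against a median of 7. The spaced palindrome TTCNNNGAA, the consensus of STAT factors, was in none of these windows and in 8.3% of all promoters. This says nothing about STAT5 binding outside the windows or at other letters. The Pim2 window held the octamer ATGCAAAT starting 202 and 123 bases before the start, a motif found in 1.74% of all promoters. CCAAT lay 101 bases before the start of Pim2 and 113 and 73 bases before that of Pim3, and was in 37.4% of all promoters. The Pim1 window held neither of these motifs. A second annotated start of Pim1 had a window with 49% G and C and 1 match to CACGTG, the E-box, 58 bases before the start, a motif in 7.15% of all promoters. CCAAT and ATGCAAAT were looked for after the sequences had been read, and the motifs do not overlap each other in these windows.

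The deposited intensities lay on 2 scales, with log2 medians from 7.49 to 7.59 on 7 arrays and from 5.70 to 5.90 on 12. These are called the high and the low set, and the fitted difference between them was 1.61 for Pim1, 1.45 for Pim2 and 1.82 for Pim3 on the log2 scale. Untreated replicate 2, IL-2 replicates 1 and 2 and replicate 1 of each inhibitor at 0.25 and 1 µM were in the high set. Scale-adjusted values bring the high arrays onto the low scale by the fitted difference. Of 12 NK cell markers 11 were on the array, 10 of which were brighter than at least 90.6% of all genes, among them Ncr1 (97.1%) and Nkg7 (99.3%). Some markers of other cells were brighter still, such as Cd79b of B cells (99.8%), Lyz2 of macrophages and monocytes (99.8%) and Ngp of neutrophils (99.7%). Others were dim, such as Clec10a of dendritic cells (13.8%). In bulk samples, fewer cells of a type and less RNA per cell cannot be told apart. Log2 differences below are given with their standard error from limma, and a gene was called changed at an adjusted p below 0.05 (Benjamini-Hochberg over 19752 genes).

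Pim2 rose with IL-2 and was lower again with either inhibitor. In the low set, its intensity was 165 and 196 in untreated samples and 1057 and 1098 in IL-2 samples. In the high set, it was 584 in the untreated sample and 2188 and 3197 in the IL-2 samples. Every IL-2 sample lay above every untreated sample of its own set. Pim2 was 5.36-fold higher with IL-2 (log2 difference 2.42 ± 0.18, limma adjusted p = 2.07e-08). This was rank 32 of 19752 genes by size of rise.

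Pim1, the founding member of the family, also rose with IL-2. Its intensity was 279 and 320 in low-set untreated samples and 716 and 829 in low-set IL-2 samples. In the high set it was 1357 in the untreated sample and 1566 and 2700 in the IL-2 samples. The IL-2 samples were again higher within each set, although in the high set IL-2 replicate 1 stood only slightly above the untreated sample. Pim1 was 2.11-fold higher with IL-2 (1.08 ± 0.20, limma adjusted p = 0.000807). The high set alone had 1 untreated sample and 1 residual degree of freedom, and no gene was called there. The Pim1 difference was 0.60 in that set and 1.37 within the low set. With a term for the form of the sample titles in place of the set it was 1.12, with a limma adjusted p of 0.149. The form is, for example, units in lower or upper case. It differs from the set only for replicate 1 of 4 µM JAK3 inhibitor, a low-set array titled like the high-set arrays.

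Pim3, the third kinase of the family, did not pass the test. Its low-set intensity was 146 and 101 in untreated samples and 149 and 166 in IL-2 samples. Its high-set intensity was 450 in the untreated sample and 451 and 522 in the IL-2 samples. The scale-adjusted values of the groups overlapped, from 6.66 to 7.19 in untreated and from 7.0 to 7.38 in IL-2 samples. The log2 difference was 0.25 ± 0.14 (95% interval -0.05 to 0.55, limma adjusted p = 0.387), so a rise the size of that of Pim1 lay outside the interval. On 4 of the 7 high-set arrays Pim3 held exactly the same intensity, 451, and 6 of the 7 lay within 10% of it, while the 12 low-set arrays held 12 different values. Pim1 and Pim2 shared no value between arrays of the high set.

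In this comparison 2 of the 3 Pim genes were called higher, against 6.56% of all genes, and the scale-adjusted values of the same 2 genes did not overlap between groups, against 10.4% of all genes for a rise. The within-array difference between Pim2 and Pim1 ran from -1.06 to -0.71 in untreated and from 0.40 to 0.64 in IL-2 samples, and the fitted changes of the 2 genes differed by 1.34 on the log2 scale. The fitted changes of Pim2 and Pim3 differed by 2.17 and those of Pim1 and Pim3 by 0.83. These sizes are a description. An exact two-sided permutation test gave p = 0.0571 for each of the 3 pairs, also after adjustment over them, but this is the smallest value that 35 splits of 3 and 4 samples allow, so the design could not reach 0.05. The splits also exchanged arrays between the scale sets.

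**Figure D1:**
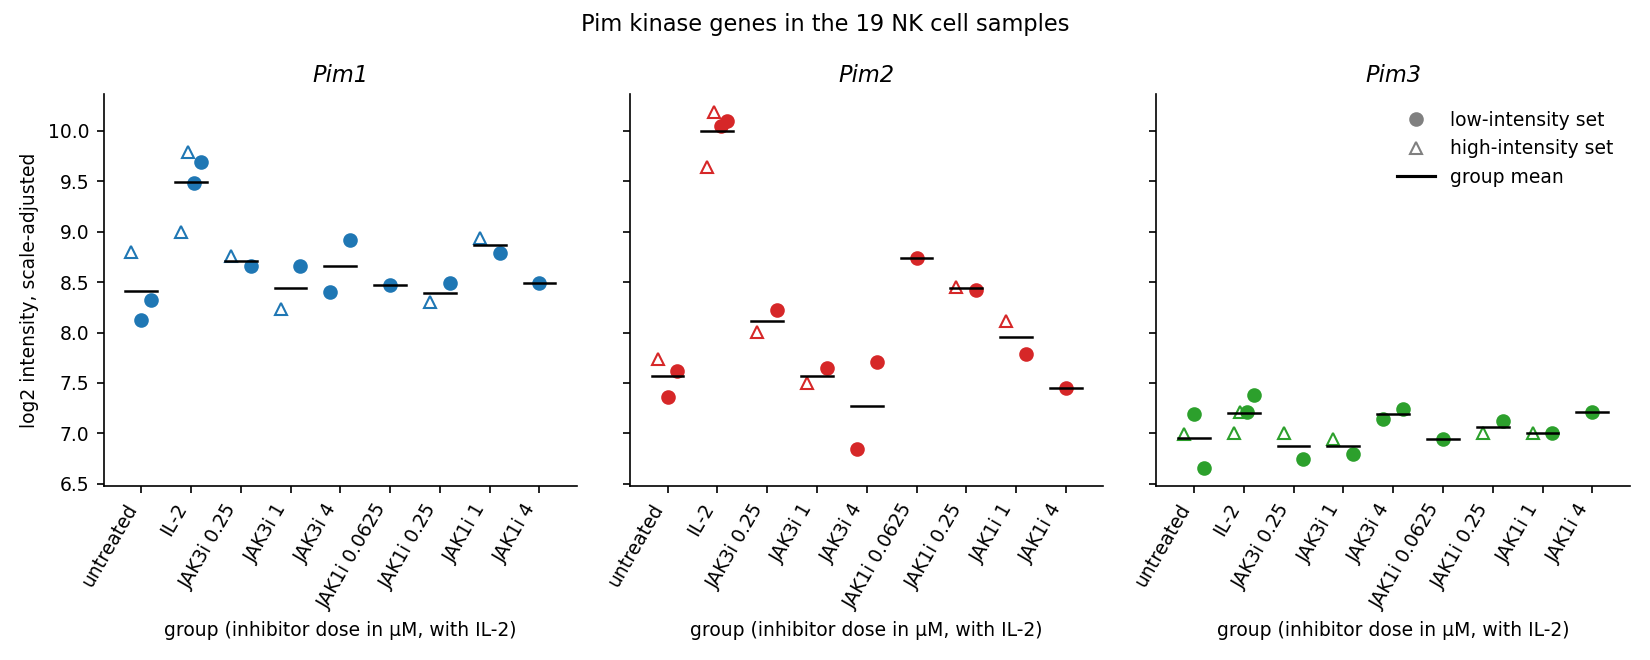
Log2 intensity after scale adjustment (vertical axis) of each Pim gene in the 19 samples, by group, with filled circles for the low set, open triangles for the high set and bars for group means. Pim2 has a mean of 9.99 with IL-2 and 7.57 untreated, while the Pim3 groups overlap.

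The inhibitor groups were compared with IL-2 alone, and these comparisons share the 4 IL-2 samples with each other and with the comparison above. Pim2 fell at each dose of the JAK3 inhibitor. At 0.25 µM its intensity was 705 on the high-set and 299 on the low-set array, at 1 µM it was 495 and 200, and at 4 µM it was 115 and 209 on 2 low-set arrays. Each of these 6 values was below both IL-2 values of the same set. Pim2 was 3.68-fold lower at 0.25 µM (-1.88 ± 0.21, limma adjusted p = 6.1e-06), 5.36-fold lower at 1 µM (-2.42 ± 0.21, 1.79e-07) and 6.59-fold lower at 4 µM (-2.72 ± 0.22, 8.05e-08). The 4 µM samples differed the most between replicates of any inhibitor group, with an SD of 0.61 on the log2 scale.

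With the JAK1 inhibitor, Pim2 stood at 426 at 0.0625 µM, on 1 low-set array. It was 959 (high set) and 344 (low set) at 0.25 µM, 760 and 221 at 1 µM, and 174 on 1 low-set array at 4 µM. These values were also all below the IL-2 values of their set. The fall was 2.94-fold at 0.25 µM (-1.56 ± 0.21, limma adjusted p = 0.000392), 4.12-fold at 1 µM (-2.04 ± 0.21, 1.93e-06) and 5.85-fold at 4 µM (-2.55 ± 0.28, 7.22e-06). At 0.0625 µM the difference of -1.26 ± 0.28 had a 95% interval of -1.84 to -0.68 but an adjusted p of 0.171, in a comparison where 0.0152% of all genes were called lower. By size of fall it ranked 12 of 19752 there.

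The 6 Pim2 calls against IL-2 and the call of IL-2 over untreated were made in every fit that left out 1 sample. For 4 µM JAK1 inhibitor only IL-2 samples could be left out, since that group is 1 array. Within the high set alone Pim2 was 2.18 higher with IL-2 than in the untreated sample. This rise and the 4 falls that could be fitted there were not called. With 1 residual degree of freedom left, no gene was called in any comparison of that set, so the missing calls are not particular to Pim2. The fall at 0.25 µM JAK1 inhibitor was also not called within the low set (-1.65) or with the title-form term (-1.56).

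Pim1 also fell against IL-2. With the JAK3 inhibitor its intensity was 1324 (high) and 405 (low) at 0.25 µM, 920 and 404 at 1 µM, and 339 and 485 on 2 low-set arrays at 4 µM. With the JAK1 inhibitor it was 355 (low) at 0.0625 µM, 964 (high) and 360 (low) at 0.25 µM, 1495 and 443 at 1 µM and 361 (low) at 4 µM. All 12 inhibitor values were below both IL-2 values of their set, with the smallest gap at 1 µM JAK1 inhibitor in the high set. Pim1 was called lower at 0.25 µM (-0.78 ± 0.22, limma adjusted p = 0.0443), 1 µM (-1.05 ± 0.22, 0.00448) and 4 µM JAK3 inhibitor (-0.83 ± 0.23, 0.0294). With the JAK1 inhibitor it was called lower at 0.25 µM (-1.10 ± 0.22, limma adjusted p = 0.00941). It was not called at 0.0625 µM (-1.02 ± 0.29, adjusted p = 0.255), 1 µM (-0.63 ± 0.22, 0.131) or 4 µM (-0.998 ± 0.29, 0.0654), and the 95% intervals of these 3 differences lay below 0.

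After scale adjustment, the values of Pim1 and of Pim2 did not overlap those of IL-2 at any dose, and those of Pim3 did not at 1 µM JAK3 and 0.0625 µM JAK1 inhibitor. The share of all genes lying wholly below IL-2 was 9.96%, 11.5% and 18.3% at 0.25, 1 and 4 µM JAK3 inhibitor, and 20.8%, 11.5%, 8.27% and 42.9% at rising JAK1 inhibitor doses. Groups of 1 sample lie wholly below more often, so these shares are not comparable between doses.

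The Pim1 call of IL-2 over untreated was made in all 7 fits that left out 1 sample (limma adjusted p from 9.39e-05 to 0.00612). Each Pim1 call of an inhibitor dose against IL-2 was lost without at least 1 single sample. The call at 0.25 µM JAK3 inhibitor was lost without IL-2 replicate 2, 3 or 4 (limma adjusted p from 0.1 to 0.14) and without either sample of that dose (0.256 without replicate 1, 0.491 without replicate 2). The call at 1 µM was lost without replicate 1 of that dose (0.219). The call at 4 µM was lost without IL-2 replicate 2, 3 or 4 (0.0628, 0.0772 and 0.121) or replicate 1 of that dose (0.24). The call at 0.25 µM JAK1 inhibitor was lost without replicate 1 (0.216) or replicate 2 (0.144) of that dose. Without IL-2 replicate 1, the lowest IL-2 sample for Pim1, the falls at 1 and 4 µM JAK1 inhibitor were called (0.0224 and 0.0136). Over the other settings tried, the call was kept in 5 of 10 at 0.25 µM, 6 of 10 at 1 µM and 5 of 9 at 4 µM JAK3 inhibitor and in 5 of 10 at 0.25 µM JAK1 inhibitor.

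Pim3 was called at no dose of either inhibitor. Its low-set intensity ran from 107 to 152 under the JAK3 inhibitor and from 123 to 148 under the JAK1 inhibitor, and its high-set intensity was 451, 435, 451 and 451 in the 4 inhibitor samples of that set. The log2 differences from IL-2 ran from -0.33 to 0.01, with limma adjusted p from 0.391 to 0.994. The lowest unadjusted p was 0.0582. The 95% interval at 4 µM JAK1 inhibitor ran from -0.44 to 0.46. Against these values, 2 of the 3 Pim genes were called lower at each JAK3 inhibitor dose, where 2.26%, 3.69% and 4.5% of all genes were called lower at 0.25, 1 and 4 µM. For the JAK1 inhibitor the count was 0 at 0.0625 µM (2 at an unadjusted p under 0.05, against 3.67% of all genes lower at that threshold), 2 at 0.25 µM, 1 at 1 µM and 1 at 4 µM, with 0.0152% of all genes called lower at the first dose and 1.52%, 2.31% and 2.63% at the others.

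**Figure D2:**
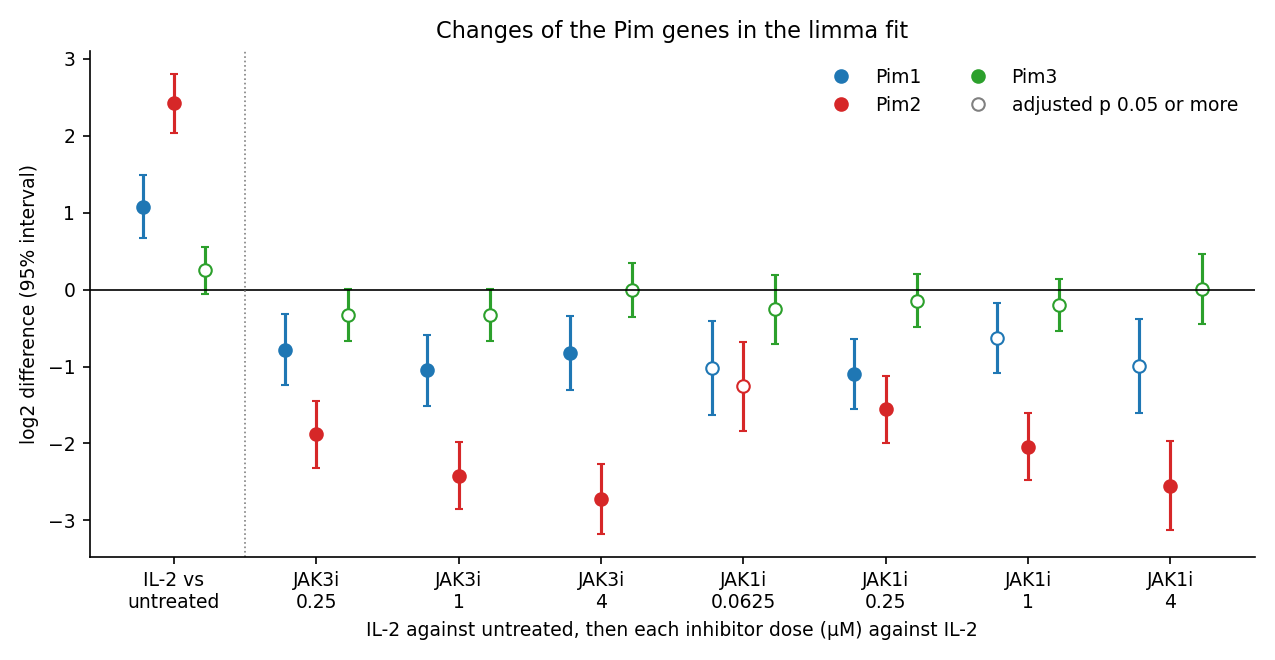
Log2 differences with 95% intervals (vertical axis) of the 3 Pim genes for IL-2 against untreated and for each inhibitor dose in µM against IL-2, with open points where the adjusted p was 0.05 or more. Pim2 runs from 2.42 with IL-2 to -2.72 at 4 µM JAK3 inhibitor, and every Pim3 interval spans 0.

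The dose series was read as the remaining share of the IL-2 effect in percent on the log2 scale, with untreated at 0 and IL-2 at 100. Under the JAK3 inhibitor Pim2 stood at 22.4% at 0.25 µM, 0.00372% at 1 µM and -12.4% at 4 µM. Under the JAK1 inhibitor it stood at 48.0% at 0.0625 µM, 35.8% at 0.25 µM, 15.7% at 1 µM and -5.27% at 4 µM. Pim2 was thus lower at each higher dose of either inhibitor in the group means. The step from 1 to 4 µM JAK3 inhibitor rests on replicate 1 of 4 µM, at 6.84 after scale adjustment. Replicate 2 of 4 µM, at 7.70, lay above both 1 µM values (7.50 and 7.65). The slope of Pim2 per 4-fold dose step was -0.44 ± 0.10 for the JAK1 inhibitor (limma adjusted p = 0.031), where 1.96% of all genes had a called downward slope. This slope was called in 6 of 9 other settings, and without replicate 1 of 0.25 µM it was -0.43 and not called. Its end groups, 0.0625 and 4 µM, weigh most in it, are 1 array each and were left out in no fit. For the JAK3 inhibitor the slope of Pim2 was -0.42 ± 0.12 (limma adjusted p = 0.281, 0.137% of all genes called downward), with a 95% interval of -0.68 to -0.16, and it rests on the 0.25 and 4 µM samples. Leaving out 1 sample at a time, this slope ran from -0.64, without replicate 2 of 4 µM, to -0.21. No test of the difference between the slopes was run.

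The group means of Pim1 did not follow the dose. They stood at 27.6%, 3.05% and 23.1% of its IL-2 response at rising JAK3 inhibitor doses, and at 5.40%, -1.57%, 41.8% and 7.51% at rising JAK1 inhibitor doses. Its slope was -0.02 ± 0.13 for the JAK3 inhibitor (95% interval -0.30 to 0.25, limma adjusted p = 0.981) and 0.05 ± 0.11 for the JAK1 inhibitor (-0.18 to 0.29, 0.824). The slope of Pim3 was 0.16 ± 0.10 (limma adjusted p = 0.657) and 0.07 ± 0.08 (0.647).

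**Figure D3:**
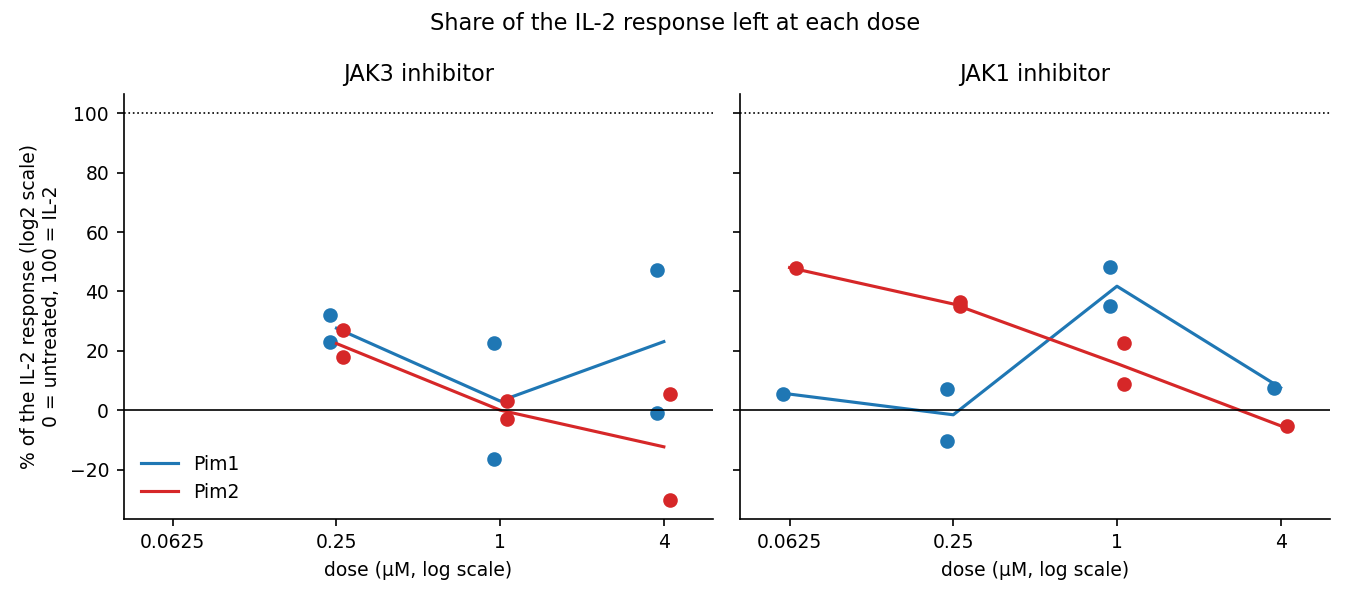
Remaining percent of the IL-2 effect (vertical axis, 0 for untreated and 100 for IL-2, log2 scale) against inhibitor dose in µM on a log axis, with points for samples and lines through the means of Pim1 and Pim2. Pim2 goes from 48.0% at 0.0625 µM to -5.27% at 4 µM JAK1 inhibitor.

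Compared with untreated cells, in a comparison that shares the 3 untreated samples across doses, Pim2 was called higher only at 0.0625 µM JAK1 inhibitor (1.16 ± 0.28, limma adjusted p = 0.036, with 1.12% of all genes called higher). That call was lost without untreated replicate 3 (0.0682) or 4 (0.0565), and was kept in 5 of 9 other settings. At 0.25 µM JAK1 inhibitor Pim2 was 0.87 ± 0.22 above untreated (limma adjusted p = 0.06), and without untreated replicate 2 this was called (0.0416). At 0.25 µM JAK3 inhibitor it was 0.54 ± 0.22 above (95% interval 0.083 to 1.004, limma adjusted p = 0.922). At 1 µM JAK3 inhibitor the Pim2 mean was 7.57, the same as untreated to 2 decimals, with a 95% interval of the difference from -0.46 to 0.46. At 4 µM the intervals were -0.77 to 0.17 for the JAK3 and -0.71 to 0.46 for the JAK1 inhibitor. Pim1 was called different from untreated at none of the 7 doses. Of all genes, 0.0861% were called in either direction at 0.25 µM JAK3 inhibitor, 1.86% at 0.0625 µM and 1.32% at 0.25 µM JAK1 inhibitor, and 0% at the other 4 doses. The largest Pim1 difference was 0.45 ± 0.23, at 1 µM JAK1 inhibitor (95% interval -0.04 to 0.94, limma adjusted p = 0.651, unadjusted 0.0683). In order of group means, Pim2 stood highest with IL-2 (9.99), then at 0.0625 µM (8.74) and 0.25 µM JAK1 inhibitor (8.44), 0.25 µM JAK3 inhibitor (8.12) and 1 µM JAK1 inhibitor (7.95). Below these came 1 µM JAK3 inhibitor (7.57), untreated (7.57), 4 µM JAK1 inhibitor (7.45) and 4 µM JAK3 inhibitor (7.27). Among these last 4 groups neighbours in this order overlapped, as did the ranges of 0.25 µM JAK3 and 1 µM JAK1 inhibitor.

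The inhibitors were compared directly at the 3 doses both had, which gave 9 tests over the Pim genes. None was called, with a lowest unadjusted p of 0.117, against 0.451% of all genes called in either direction at 0.25 µM and 0% at 1 and 4 µM. Pim2 was lower with the JAK3 than with the JAK1 inhibitor by values of -0.32 ± 0.24 at 0.25 µM (95% interval -0.82 to 0.18), -0.38 ± 0.24 at 1 µM (-0.88 to 0.12) and -0.17 ± 0.29 at 4 µM (-0.79 to 0.44). The limma adjusted p of these differences was 0.997 or above. Pim1 differed by 0.31 ± 0.25 (-0.22 to 0.85), -0.42 ± 0.25 (-0.95 to 0.11) and 0.17 ± 0.31 (-0.48 to 0.82). Pim3 differed by -0.19 ± 0.19 (-0.58 to 0.21), -0.13 ± 0.19 (-0.52 to 0.27) and -0.01 ± 0.23 (-0.49 to 0.47). The intervals leave room for a lower level with the JAK3 inhibitor by up to 0.95 on the log2 scale in Pim1 and 0.88 in Pim2. They also leave room for a higher level by up to 0.85 in Pim1 and 0.44 in Pim2.

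Around the Pim genes stand the receptor and kinases that carry the IL-2 signal. Of 15 such components 12 were on the array. With IL-2, 3 were called higher and 0 lower, against 6.56% and 2.59% of all genes, with a median of 0.16 against -0.01 over all genes. The receptor chains Il2ra (2.27 ± 0.18, limma adjusted p = 3.73e-08) and Il2rb (1.52 ± 0.16, 1.9e-06) and the transcription factor Stat3 (0.59 ± 0.16, 0.0224) rose. The phosphatase gene Ptpn2 was at 0.42 ± 0.13 (limma adjusted p = 0.0523). A list of 18 genes known to respond to STAT5 was chosen with earlier results of these data known. Of these genes, 15 were called higher and 1 lower, with a median of 1.83. The 4 with the smallest p were Socs1, an inhibitor of JAK signalling (3.01), Tnfrsf9, a costimulatory receptor (3.43), Gzmb, a cytotoxic protease (5.19), and Cish, another signalling inhibitor (2.10). Pim2 rose by 2.42 in the same comparison, above that median, and Pim1 by 1.08, below it. Of the same 18 genes, 13, 15 and 15 were called lower than IL-2 at 0.25, 1 and 4 µM JAK3 inhibitor. The share of all genes called lower was 2.26%, 3.69% and 4.5%. With the JAK1 inhibitor the counts were 0, 7, 13 and 12 from 0.0625 to 4 µM. There 0.0152%, 1.52%, 2.31% and 2.63% of all genes were called lower. Between the inhibitors at 0.25 µM, 8 of the 18 were called lower with the JAK3 inhibitor, against 0.238% of all genes, where Pim1 and Pim2 were not.

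Proteins that Pim kinases are reported to phosphorylate formed another list, of which 25 of 26 were on the array. With IL-2, 5 were called higher and 2 lower, against 6.56% and 2.59% of all genes, with a median of 0.04. Besides Socs1 (3.01), the transcription factors Myc (2.32 ± 0.19, limma adjusted p = 5.48e-08) and Runx3 (1.24 ± 0.18, 5.58e-05) rose, and the chemokine receptor Cxcr4 fell (-1.04 ± 0.11, 2.48e-06). The other genes called were Snd1 (0.72) and Socs3 (0.86), higher, and the cell cycle inhibitor Cdkn1b (-0.65), lower. Socs1, Socs3 and Myc are also in the STAT5 list. The kinases and regulators of the AKT and mTOR pathway, which shares substrates with the Pim kinases, had 0 of 14 called higher and 1 lower with IL-2, Sgk3 (-0.51 ± 0.14, limma adjusted p = 0.0287). Akt2 (0.40 ± 0.15), Sgk1 (-0.41 ± 0.15) and Rps6 (-0.18 ± 0.10) had adjusted p of 0.13, 0.0919 and 0.346. The chaperone HSP90 stabilises and the phosphatase PP2A destabilises Pim proteins. Of the genes for HSP90, its co-chaperone Cdc37 and PP2A subunits, 1 of 5 was called higher, Hsp90aa1 (0.67 ± 0.12, limma adjusted p = 0.000747). Cdc37 (0.35), Ppp2ca (0.26) and Ppp2r1a (0.17) were not called. The arrays measure messenger RNA, so nothing here shows Pim protein or its activity.

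**Figure D4:**
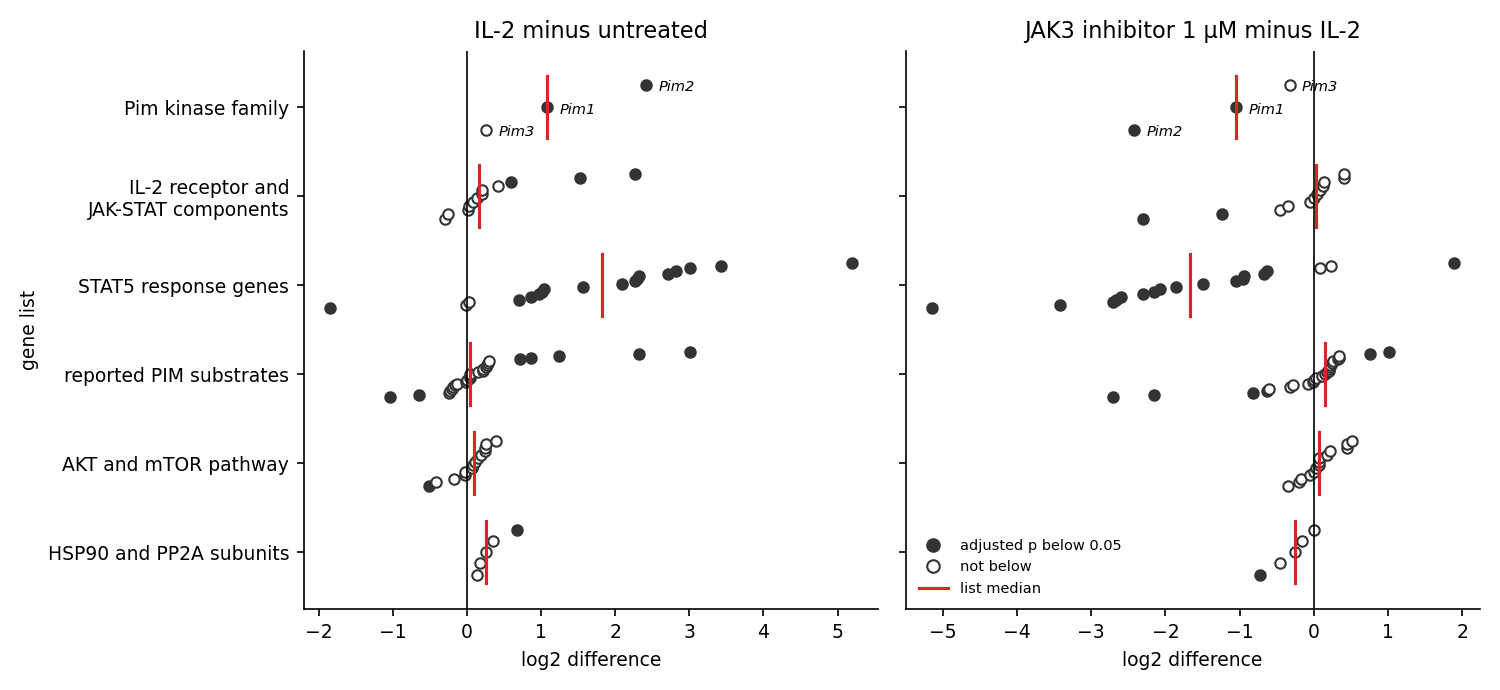
Log2 differences (horizontal axis) of the Pim genes and of the genes of 5 pathway lists for IL-2 minus untreated (left) and JAK3 inhibitor 1 µM minus IL-2 (right), with filled points for adjusted p below 0.05 and red bars for list medians. The STAT5 response list has a median of 1.83 on the left and -1.67 on the right.

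The genes most like each Pim gene over the 19 scale-adjusted arrays were found among 9875 genes of at least median intensity, as a description, since all the genes share the arrays and the treatments. For Pim2 these were Ppp1r14b, a phosphatase inhibitor (Pearson r = 0.986), Ppa1, a pyrophosphatase (0.975), Mettl1, a transfer RNA methyltransferase (0.975), Cdk6, a cell cycle kinase (0.974), and Psat1, an enzyme of serine synthesis (0.973). For Pim1 they were Prmt3, an arginine methyltransferase (0.976), Kars, the lysyl transfer RNA synthetase (0.974), G3bp1, an RNA-binding protein (0.967), Atp5g3, an ATP synthase subunit (0.962), and Psmd6, a proteasome subunit (0.961). For Pim3 the values were lower, with Ndufv2, a subunit of respiratory complex I, at 0.857, Guk1, guanylate kinase, at 0.830, Traf4 at 0.816, Ppp1r3e at 0.797 and Ssb at 0.793. In the 12 low-set arrays alone r ran from 0.967 to 0.986 for the Pim2 genes, from 0.952 to 0.983 for the Pim1 genes and from 0.809 to 0.910 for the Pim3 genes. Between members, r was 0.812 for Pim1 and Pim2, 0.478 for Pim1 and Pim3 and 0.350 for Pim2 and Pim3.

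Markers of some other cell types also differed between the groups. Of 12 macrophage and monocyte markers, 9 were called lower and 0 higher with IL-2, against 2.59% and 6.56% of all genes. Their mean log2 level was 8.53 to 8.95 in untreated and 6.87 to 7.33 in IL-2 samples, 8.68 to 8.88 over the JAK3 inhibitor samples, and 7.44, 7.78 to 7.95, 8.63 to 8.84 and 8.58 at rising JAK1 inhibitor doses. These markers were therefore low where Pim2 was high. At every inhibitor dose these markers lay above their IL-2 range and Pim1 lay below its own. Pim1 stood at 5.40% and -1.57% of its IL-2 response at 0.0625 and 0.25 µM JAK1 inhibitor, groups of 1 and 2 samples. Of 11 NK cell markers, 8 were called higher with IL-2, against 6.56% of all genes. Prf1 (2.82) is among these markers and also in the STAT5 list. Mean levels of the 11 markers were 7.82 to 8.10 in untreated and 9.0 to 9.39 in IL-2 samples. Their level was 7.80 to 8.36 over the JAK3 inhibitor samples. At rising JAK1 inhibitor doses it was 9.05, 8.84 to 9.09, 8.06 to 8.79 and 8.17. At 0.0625 and 0.25 µM JAK1 inhibitor the NK marker level was within or near the IL-2 range, and Pim1 and Pim2 lay below IL-2. Of the other lists, 7 of 11 neutrophil and 3 of 9 B cell markers were called lower with IL-2, 2 of 10 dendritic cell markers higher and 2 lower, and 0 of 10 T cell and 0 of 4 erythroid markers in either direction. The part of these shifts in the Pim results was not tested.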

How the data were processed

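The series holds 19 arrays of mouse splenic NK cells. Per the submitters' processing notes, the authors made the deposited intensity values with Affymetrix Power Tools and RMA, and versions and settings are not given in the sources used here. These deposited values are linear intensities on 2 scales, and no background or detection values were used, so precision is limited by array number. Of 24922 probe sets, 21425 had 1 gene symbol, 1399 had several and 2098 were not listed; the brightest probe set stood for the 921 genes with several, which left 19752 genes.

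Log2 values entered a limma 3.58.1 model (R 4.3.3; a mean per group, a term for the scale set, eBayes with intensity trend; 9 residual and 10.5 prior degrees of freedom), and a lone sample was taken to vary as the other groups do. Benjamini-Hochberg adjustment ran over the 19752 genes, at a threshold of 0.05 and 95% intervals. The 20 comparisons were IL-2 with untreated, each dose with IL-2 and with untreated, the inhibitors at matched doses, and a slope for each inhibitor. Pim3 was not compared with untreated at single doses in the text. The 3 gene pairs were compared by an exact permutation test of within-array differences, two-sided by doubling the smaller tail. Named genes are the members, up to 4 of each pathway list with the smallest p for IL-2, and the 5 genes with the highest r to each member; Snd1, Socs3 and Cdkn1b were added because they were called. Lists were matched by exact symbol. The members and lists were chosen with earlier results of these data known. Replicate numbers were not used as pairs. The scripts were tested on simulated data. Alternatives were median centring, quantile normalization, a filter at the median intensity, no intensity trend, the mean of a gene's probe sets, a title-form term in place of the set, each set alone, only the compared groups, the replicate block and leaving out each sample. Figures and promoter searches used matplotlib 3.10.9, pandas 2.3.3, numpy 2.4.6 and Python 3.11.15, and promoter windows were found for all 3 genes.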

Additional observations from a re-analysis of the deposited data

How the results depend on the processing

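Of 757 alternative values of 53 Pim results, 642 kept their direction and their side of the threshold, 249 of them for Pim2, 221 for Pim1 and 172 for Pim3. The mean of a gene's probe sets (53 kept) could not alter a Pim value, since each Pim gene has 1 probe set. The fit without intensity trend (53 kept) and the median filter (51 kept) leave log2 differences unchanged, so only p could move. The total of 642 therefore overstates how far the results were tried. JAK3i and JAK1i stand for the inhibitors, values are log2 differences, and the causes of the changes were not tested. With median centring and no scale-set term, calls were lost for Pim1 in JAK3i 0.25 µM against IL-2 (-0.85), JAK3i 1 µM against IL-2 (-1.09), JAK3i 4 µM against IL-2 (-0.74), JAK1i 0.25 µM against IL-2 (-1.15) and Pim2 in JAK1i 0.0625 µM against untreated (1.19), JAK1i slope (-0.39), while the sign turned for Pim1 in JAK3i slope (0.056) and Pim2 in JAK3i 1 µM against untreated (-0.053), JAK1i 4 µM against untreated (0.061). With only the compared groups fitted, calls were lost for Pim1 in JAK3i 4 µM against IL-2 (-0.93) and Pim2 in JAK1i 0.0625 µM against untreated (1.24), while calls were gained for Pim1 in JAK1i 1 µM against IL-2 (-0.63), JAK1i 4 µM against IL-2 (-1.10) and Pim2 in JAK1i 0.0625 µM against IL-2 (-1.34), while the sign turned for Pim2 in JAK3i 1 µM against untreated (-0.013) and Pim3 in JAK1i 4 µM against IL-2 (-0.089). After quantile normalization, calls were gained for Pim1 in JAK1i 1 µM against IL-2 (-0.63), JAK1i 4 µM against IL-2 (-0.90) and Pim2 in JAK1i 0.25 µM against untreated (0.78), while the sign turned for Pim1 in JAK3i 1 µM against untreated (-0.066), JAK3i slope (0.0028) and Pim2 in JAK3i 1 µM against untreated (-0.12) and Pim3 in JAK3i 4 µM against IL-2 (0.027). With the replicate number as a block beside the scale set, calls were lost for Pim1 in JAK3i 0.25 µM against IL-2 (-0.44), JAK3i 4 µM against IL-2 (-0.17), JAK1i 0.25 µM against IL-2 (-0.76), while calls were gained for Pim2 in JAK3i 0.25 µM against untreated (1.11), JAK1i 0.25 µM against untreated (1.43), while the sign turned for Pim1 in JAK1i 0.0625 µM against IL-2 (0.0028), JAK1i 0.25 µM against untreated (0.45), JAK3i slope (0.14), JAK1i slope (-0.17) and Pim2 in JAK3i 4 µM against untreated (0.62), JAK1i 4 µM against untreated (0.44), JAK3i 4 µM against JAK1i 4 µM (0.18) and Pim3 in JAK3i 4 µM against IL-2 (0.32), JAK1i 0.0625 µM against IL-2 (0.16), JAK1i 0.25 µM against IL-2 (0.050), JAK3i 4 µM against JAK1i 4 µM (0.082). With the title-form term in place of the scale set, calls were lost for Pim1 in IL-2 against untreated (1.12), JAK3i 0.25 µM against IL-2 (-0.78), JAK3i 1 µM against IL-2 (-1.05), JAK1i 0.25 µM against IL-2 (-1.10) and Pim2 in JAK1i 0.25 µM against IL-2 (-1.56), JAK1i 0.0625 µM against untreated (1.07), JAK1i slope (-0.44), while the sign turned for Pim1 in JAK3i 4 µM against untreated (-0.51), JAK1i 0.0625 µM against untreated (-0.027), JAK1i 0.25 µM against untreated (0.026), JAK1i 4 µM against untreated (-0.0042), JAK3i 4 µM against JAK1i 4 µM (-0.51) and Pim3 in JAK1i 4 µM against IL-2 (-0.11), JAK3i slope (-0.29). Within the high-intensity set, calls were lost for Pim1 in IL-2 against untreated (0.60), JAK3i 0.25 µM against IL-2 (-0.63), JAK3i 1 µM against IL-2 (-1.16), JAK1i 0.25 µM against IL-2 (-1.09) and Pim2 in IL-2 against untreated (2.18), JAK3i 0.25 µM against IL-2 (-1.91), JAK3i 1 µM against IL-2 (-2.42), JAK1i 0.25 µM against IL-2 (-1.46), JAK1i 1 µM against IL-2 (-1.80), while the sign turned for Pim1 in JAK3i 0.25 µM against untreated (-0.036), JAK3i 1 µM against untreated (-0.56) and Pim2 in JAK3i 1 µM against untreated (-0.24). Within the low-intensity set, calls were lost for Pim1 in JAK3i 0.25 µM against IL-2 (-0.93), JAK3i 1 µM against IL-2 (-0.93), JAK3i 4 µM against IL-2 (-0.93), JAK1i 0.25 µM against IL-2 (-1.10) and Pim2 in JAK1i 0.25 µM against IL-2 (-1.65), JAK1i 0.0625 µM against untreated (1.24), JAK1i slope (-0.45), while the sign turned for Pim1 in JAK1i 0.25 µM against untreated (0.27) and Pim3 in JAK1i 4 µM against IL-2 (-0.089). With only genes at or above the median intensity, calls were gained for Pim1 in JAK1i 4 µM against IL-2 (-0.998) and Pim2 in JAK1i 0.25 µM against untreated (0.87). Leaving out 1 replicate at a time, Pim1 ran over JAK3i 0.25 µM against IL-2 from -0.96 to -0.67, JAK3i 1 µM against IL-2 from -1.29 to -0.80, JAK3i 4 µM against IL-2 from -1.09 to -0.57, JAK1i 0.25 µM against IL-2 from -1.28 to -0.99, JAK1i 1 µM against IL-2 from -0.81 to -0.52, JAK1i 4 µM against IL-2 from -1.13 to -0.90, JAK3i 1 µM against untreated from -0.22 to 0.29, JAK3i 4 µM against untreated from -0.010 to 0.51, JAK1i 0.0625 µM against untreated from -0.11 to 0.25, JAK1i 0.25 µM against untreated from -0.16 to 0.24, JAK1i 4 µM against untreated from -0.086 to 0.27, JAK3i 4 µM against JAK1i 4 µM from -0.091 to 0.43, JAK3i slope from -0.15 to 0.11. Likewise Pim2 ran over JAK3i 1 µM against untreated from -0.10 to 0.11, JAK3i 4 µM against untreated from -0.73 to 0.13, JAK1i 0.0625 µM against untreated from 1.04 to 1.24, JAK1i 0.25 µM against untreated from 0.76 to 0.98, JAK3i 4 µM against JAK1i 4 µM from -0.60 to 0.26, JAK3i slope from -0.64 to -0.21, JAK1i slope from -0.45 to -0.42. Likewise Pim3 ran over JAK3i 4 µM against IL-2 from -0.059 to 0.076, JAK1i 4 µM against IL-2 from -0.047 to 0.089, JAK3i 4 µM against JAK1i 4 µM from -0.061 to 0.037. The labels do not say whether replicate numbers pair the samples. Over 38 pairs with the same number, deviations from the group means correlated from -0.54 to 0.698 (median -0.00752), and 16 pairs exceeded 0.1. In groups of 2 the deviations mirror each other, so these values cannot decide it. The fit with the replicate block is given as a check only. Within the high-intensity set 1 residual degree of freedom was left, and the Pim3 difference between JAK3i and JAK1i at 0.25 µM was 0 there because both arrays hold the same tied intensity. The number of genes called for IL-2 against untreated was 1808 and ran from 0 within the high-intensity set (limma, 1264 at an unadjusted p under 0.05) to 3233 with the replicate block. For each dose against IL-2 the number called and its range over the settings was 987 (0 to 2258), 1293 (0 to 2582) and 1483 (577 to 8907) for JAK3i at 0.25, 1 and 4 µM, and 4 (0 to 351), 445 (0 to 1770), 1019 (0 to 2092) and 745 (112 to 1744) for JAK1i at rising doses. Against untreated it was 17 (0 to 86), 0 (0 to 0) and 0 (0 to 2195) for JAK3i and 367 (14 to 1010), 261 (0 to 694), 0 (0 to 3) and 0 (0 to 78) for JAK1i. Between the inhibitors it was 89 (0 to 1114), 0 (0 to 84) and 0 (0 to 27), and for the slopes 30 (0 to 280) with JAK3i and 549 (26 to 1890) with JAK1i. Groups of 1 and 2 arrays and tied Pim3 values limit what these data resolve.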
